A study of Schmidtea mediterranea with 24 samples.

Results

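In intact planarians, 49 contigs of a transcript assembly were lower in every animal given myoD RNAi than in every control of the same feeding schedule, and passed a limit on how far they were lower after nkx1-1 RNAi. They were chosen from the read count table of 26563 contigs. Of these contigs, 15382 had a mean of at least 1 CPM (counts per 1000000 counts of a library) over the 24 libraries. M, the log2 ratio of mean CPM in myoD RNAi animals over their controls after adding 0.5 CPM to each mean, was at or under -0.3 in 317 of the 15382, and 113 of the 317 had no overlap between the animals of both groups, with every myoD RNAi animal lower, which held for 1.52% of the 15382. N, the same ratio for nkx1-1 RNAi animals over their own controls, was above -0.15 in 49 of the 113 and at or under it in the other 64. Values of all 24 animals thus chose the 49 contigs, so the falls after myoD RNAi and the values after nkx1-1 RNAi are descriptions and carry no test of their own.

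The animals were Schmidtea mediterranea of the strain CIW4, and each library is labelled as 1 intact animal, although the extraction text speaks of wounds from tail fragments. RNAi was by feeding dsRNA in liver. The groups are 6 animals given myoD dsRNA and 6 given unc-22 dsRNA, a control gene of Caenorhabditis elegans, after 10 feedings in 7 weeks, and 7 animals given nkx1-1 dsRNA and 5 given unc-22 dsRNA after 12 feedings in 9 weeks. Number of feedings, weeks and cohort go together with the targeted gene and cannot be told apart from it. The labels do not say whether the animals of a group were treated separately, so p-values measure the spread between these animals.

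MyoD is a transcription factor of the basic helix-loop-helix family, known in vertebrates for driving skeletal muscle fate. In planarians myoD is needed for the longitudinal fibres of the body wall and nkx1-1, a homeobox gene, for the circular fibres. Planarian muscle cells also express many of the genes that give positional information and make extracellular matrix, and all differentiated cells are replaced from neoblasts, the dividing cells of the adult animal. The files give contig IDs without gene names and no table of names was used here, so no role is given to any contig, and neither the level of the targeted genes nor markers of muscle or other cell types could be looked up. In RNA of whole animals, fewer cells of a type and less RNA per cell cannot be told apart.

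Total counts ran from 9757113 to 18136698 per library. A pair of libraries stood apart from their groups. On the first principal component of log2(CPM + 0.5), 12-feeding control replicate 3 was at 8.28, the other 11 animals of its schedule at -35.1 to -16.0 and the 12 of the 10-feeding schedule at 17.6 to 25.3. In nkx1-1 RNAi replicate 1 the TMM factor, edgeR's scaling for composition, was 0.898, against 0.934 to 1.08 in the other 23 libraries. Several counts are also given without 1 or both of them, while correlations between contigs are given only with both included. Libraries of a group differed by more than sampling noise in every pair, with a chi-square per degree of freedom of 4.18 to 103.

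The 49 contigs covered a wide range of levels and mostly modest falls. Their mean over all animals ran from 1.30 to 779.5 CPM with a median of 8.31 CPM, against a median of 16.1 CPM over the 15382 contigs. The mean CPM in myoD RNAi animals was 24.6% to 80.6% of that in controls, with a median of 73.6%, and was under 50% for 6 contigs. On the log2 scale with the 0.5 CPM offset, M was at or under -1 for 5 contigs, between -1 and -0.5 for 13 and above -0.5 for 31. The low contigs held the deep falls. With few counts a small fall is less likely to leave the groups without overlap. The rule thus favoured deep falls there, and the values by level are a description. M had a median of -0.57 in the 25 contigs under 10 CPM, -0.38 in the 18 from 10 to 100 CPM and -0.34 in the 6 at 100 CPM or more. The median M over all 15382 contigs was -0.02.

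**Figure D1:**
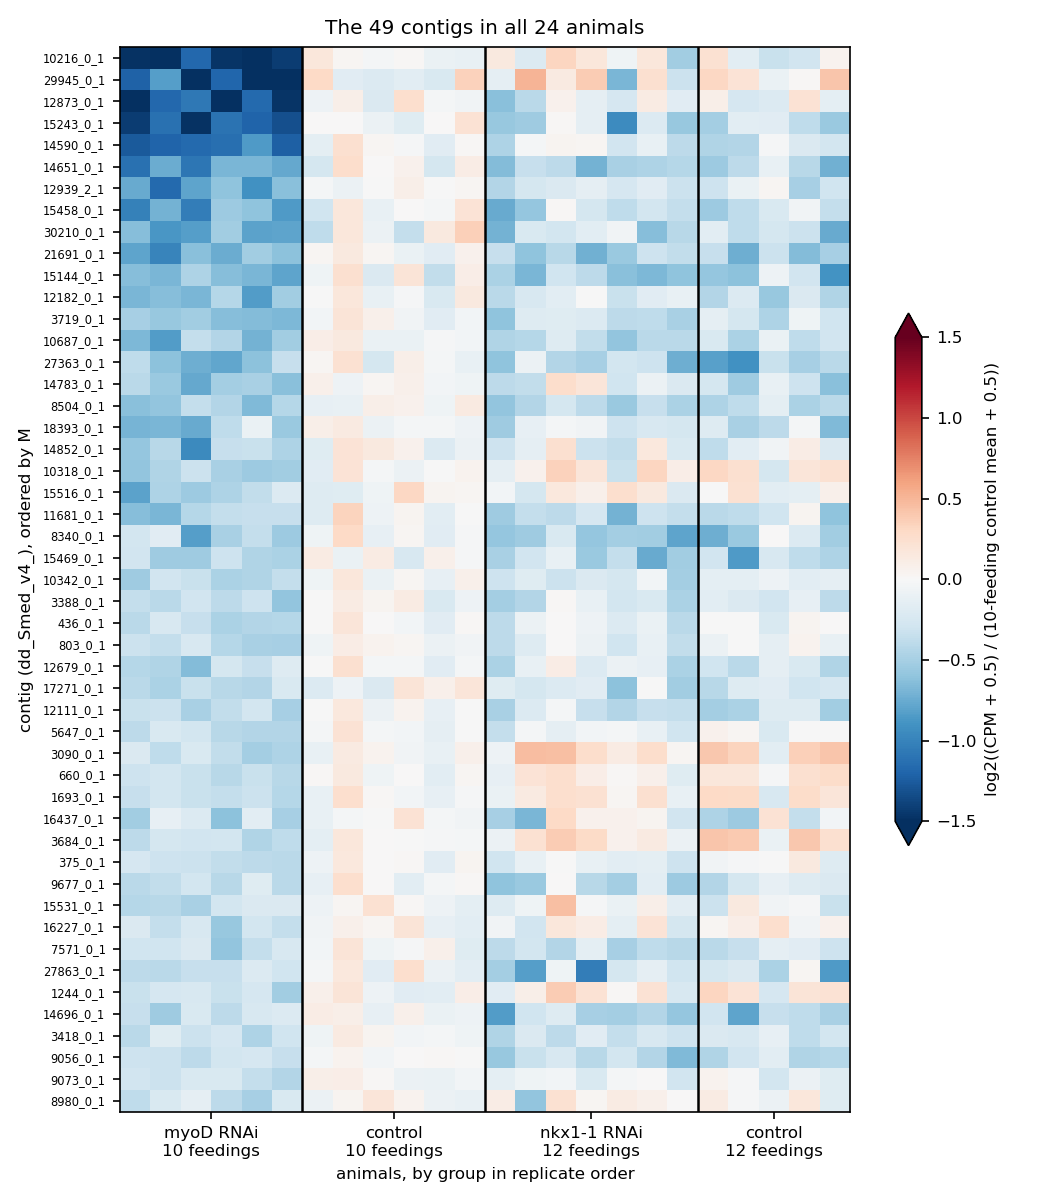
Level of each of the 49 contigs (rows, ordered by M) in each of the 24 animals (columns, by group), as log2 of CPM + 0.5 over the mean of the 10-feeding controls + 0.5; blue is lower, red higher, and the scale ends at -1.5 and 1.5. The deepest blue lies in the myoD RNAi animals at the top, where 5 contigs have M at or under -1, and the animals of the 12-feeding schedule differ from contig to contig.

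Among the 49, dd_Smed_v4_10216_0_1 had the lowest M, -1.45. Its CPM in myoD RNAi animals was 1.79 at the lowest, 1.99 at the median and 2.56 at the highest, against 5.93, 6.43 and 7.28 in controls. After nkx1-1 RNAi the lowest, median and highest values were 4.33, 7.16 and 8.20 CPM, against 7.60, 5.70, 5.02, 5.20 and 6.70 CPM in the 12-feeding controls. The myoD RNAi animals thus lay well under all 18 others, and the nkx1-1 RNAi animals spread over the range of their controls and beyond it on both sides. The counts behind these values were 27 to 36 per myoD RNAi library and 86 to 103 per control library.

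For dd_Smed_v4_29945_0_1, with M at -1.39, the share of the control level left was the smallest of the 49. Its lowest, median and highest CPM were 0.231, 0.529 and 1.08 in myoD RNAi animals, against 1.88, 1.99 and 3.05 in controls. Only 4 to 16 counts per myoD RNAi library stand behind it, against 27 to 53 per control library, and edgeR's log2 fold change, which adds no 0.5 CPM, was -2.01 ± 0.28 (SE). The nkx1-1 RNAi animals, at 1.24 to 3.48 CPM, overlapped their controls at 2.12 to 3.25 CPM.

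The next contigs in order were also low in level. In dd_Smed_v4_12873_0_1 (M = -1.36) the lowest, median and highest CPM were 0.786, 1.30 and 1.64 in myoD RNAi animals, against 3.33, 3.85 and 4.81 in controls. In dd_Smed_v4_15243_0_1 (M = -1.27) they were 1.14, 1.42 and 1.63 after myoD RNAi, against 3.54, 4.11 and 4.83 in controls. In dd_Smed_v4_14590_0_1 (M = -1.13) they were 3.96, 4.22 and 5.42 after myoD RNAi, against 9.05, 10.2 and 12.2 in controls. In all 3 the gap between the groups was wider than the range of the myoD RNAi animals.

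The sixth of this order, dd_Smed_v4_14651_0_1, had M at -0.84. Its lowest, median and highest CPM were 3.32, 4.41 and 4.67 after myoD RNAi, against 6.40, 8.01 and 9.50 in controls. In this contig the 12-feeding animals reached into the ranges of both groups, at 4.58 to 6.05 CPM after nkx1-1 RNAi and at 5.19, 5.82, 7.21, 5.71 and 4.52 CPM in controls. The lowest animals of both 12-feeding groups were under the highest myoD RNAi animal, and 12-feeding control replicate 3 was within the 10-feeding control range. In the first 5 contigs of the order, every 12-feeding animal, nkx1-1 RNAi and control alike, was above every myoD RNAi animal.

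**Figure D2:**
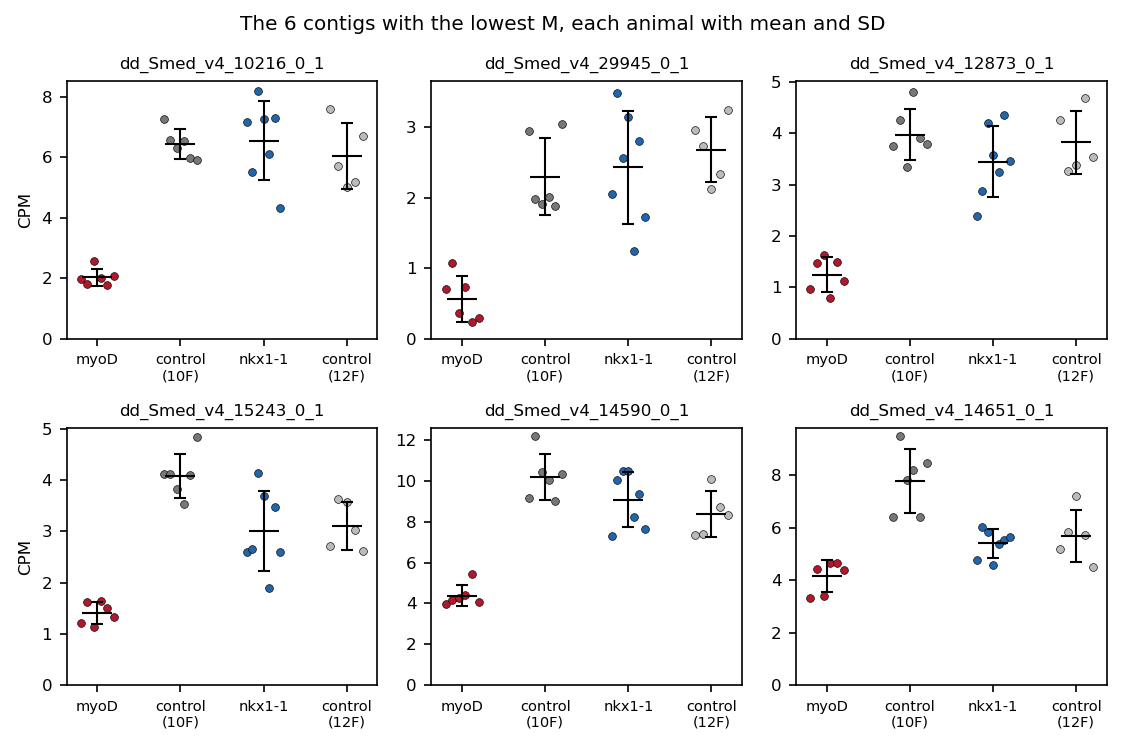
CPM of the 6 contigs with the lowest M in each animal, with the mean and SD of each group as bars (n = 6, 6, 7 and 5, left to right). In the first 5 panels the myoD RNAi animals lie under all others; in the last, dd_Smed_v4_14651_0_1, the 12-feeding animals reach down to 4.52 CPM.

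At the other end of the level range were contigs with small falls and many counts. The most abundant, dd_Smed_v4_375_0_1, had a lowest, median and highest CPM of 646.3, 671.3 and 717.4 in myoD RNAi animals, against 756.7, 861.1 and 948.6 in controls, a ratio of 79.1%. In dd_Smed_v4_436_0_1 they were 454.7, 472.9 and 534.3 after myoD RNAi, against 561.0, 629.1 and 714.1 in controls, a ratio of 76.5%. In dd_Smed_v4_660_0_1 they were 171.6, 181.8 and 190.5 after myoD RNAi, against 206.4, 231.9 and 254.3 in controls, a ratio of 78.6%. At least 2324 counts per library stand behind each of these values.

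In these 3 abundant contigs N was below 0 but inside the limit of the rule. The nkx1-1 RNAi animals had 685.9 to 845.8 CPM of dd_Smed_v4_375_0_1, against 745.7 to 943.7 CPM in 12-feeding controls, with N at -0.14. For dd_Smed_v4_436_0_1 the nkx1-1 RNAi animals had 475.9 to 634.7 CPM, against 538.6 to 649.6 CPM, with N at -0.14. For dd_Smed_v4_660_0_1 the nkx1-1 RNAi animals had 202.7 to 274.0 CPM, against 227.8 to 278.7 CPM, with N at -0.11. The groups overlapped in each case. The same held for dd_Smed_v4_803_0_1, whose N of -0.148 was among the lowest of the 49. Its nkx1-1 RNAi animals had 135.5 to 177.6 CPM, against 162.2 to 184.7 CPM in 12-feeding controls. After myoD RNAi it had 125.6 to 150.2 CPM, against 166.7 to 191.1 CPM in 10-feeding controls.

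Fitted with edgeR's quasi-likelihood test over all 16352 contigs tested, all 49 passed the filter on low counts and 46 were called lower at an adjusted p under 0.05, where 2.37% of all contigs tested were called lower. Since the same contrast chose the contigs, nothing is read from this count. For 44 of the 49 the authors' deposited table gave an adjusted p under 0.05 with a fold change under 1. There 1.01% of the 26030 contigs with a p-value were lower at that threshold. It compares the same groups as the rule, so nothing is read from this count either. In the authors' deposited table the fold changes of the 49 ran from 0.246 to 0.809. The contigs edgeR did not call were dd_Smed_v4_16437_0_1, dd_Smed_v4_16227_0_1 and dd_Smed_v4_27863_0_1, at 3.35, 1.75 and 1.31 CPM, named after their values were seen.

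After nkx1-1 RNAi the 49 contigs were near their controls but leaned to the low side. N ran from -0.15 to 0.25 with a median of -0.06, and was above 0 for 16 and at or under it for 33, while the median over the 15382 contigs was 0.04. In edgeR's fit with TMM scaling the log2 fold change was below 0 for 38 and above 0 for 11, with a median of -0.10. Over all contigs tested 48.9% were below 0. For each of the 49 the ranges of nkx1-1 RNAi and 12-feeding control animals overlapped. Overlap can rest on few animals. In dd_Smed_v4_10342_0_1, named after its values were seen, 6 of the 7 nkx1-1 RNAi animals were under all controls. Of the 15382 contigs, 1% had every nkx1-1 RNAi animal lower and 0.67% every one higher. With edgeR 0 of the 49 were called, against 3.87% of the 16598 contigs tested, and 4 had an unadjusted p under 0.05, all 4 lower, against 21.1% of all tested. DESeq2 called 1 of them, lower, where 590 of all 16978 contigs it tested were called lower. The rule had removed contigs with lower N, so these counts are set by it.

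The contigs with the highest N were dd_Smed_v4_14783_0_1 and dd_Smed_v4_12182_0_1. In dd_Smed_v4_14783_0_1 the nkx1-1 RNAi animals had 4.64 to 7.61 CPM with a median of 5.33, against 5.13, 4.16, 5.75, 4.97 and 3.88 CPM in 12-feeding controls. Replicates 3, 4 and 6 of the nkx1-1 RNAi animals were above all 5 controls, and the other 4 lay among them. In dd_Smed_v4_12182_0_1 they had 5.93 to 7.94 CPM with a median of 7.02, against 5.75, 6.89, 5.22, 6.80 and 5.71 CPM, again with overlap. After myoD RNAi both were lower than in controls, at 3.48 to 4.60 against 5.88 to 6.62 CPM for dd_Smed_v4_14783_0_1 and at 4.27 to 5.80 against 6.75 to 9.07 CPM for dd_Smed_v4_12182_0_1.

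A fall after myoD RNAi with none after nkx1-1 RNAi needs a test of the difference between both effects. In a fit of all 24 libraries the nkx1-1 effect minus the myoD effect was positive for all 49, and edgeR called it for 13 of them at an adjusted p under 0.05, where 0.169% of the 17159 contigs tested were called in that direction. Both effects entered the rule, so the count only sorts the contigs and nothing more is read from it. The 13 had differences from 0.42 to 1.82 on the log2 scale. All 6 contigs with the lowest M were among them, with dd_Smed_v4_29945_0_1 at 1.82 ± 0.38, dd_Smed_v4_10216_0_1 at 1.75 ± 0.20 and dd_Smed_v4_14590_0_1 at 1.29 ± 0.14 (SE). By level, 11 of the 13 were under 10 CPM, 2 were from 10 to 100 CPM and 0 of the 6 contigs at 100 CPM or more were called. For the 36 that were not called, a fall limited to myoD RNAi was not shown. Their separation from contigs lowered by both treatments is that of the N limit. For the 13, the call is no evidence apart from the rule. Of the 64 contigs left out by N, 3 were called in the same direction. Among these were dd_Smed_v4_12634_0_1 at 4.19 ± 0.22 and dd_Smed_v4_18181_0_1 at 2.37 ± 0.27 (SE), both above all of the 13.

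**Figure D3:**
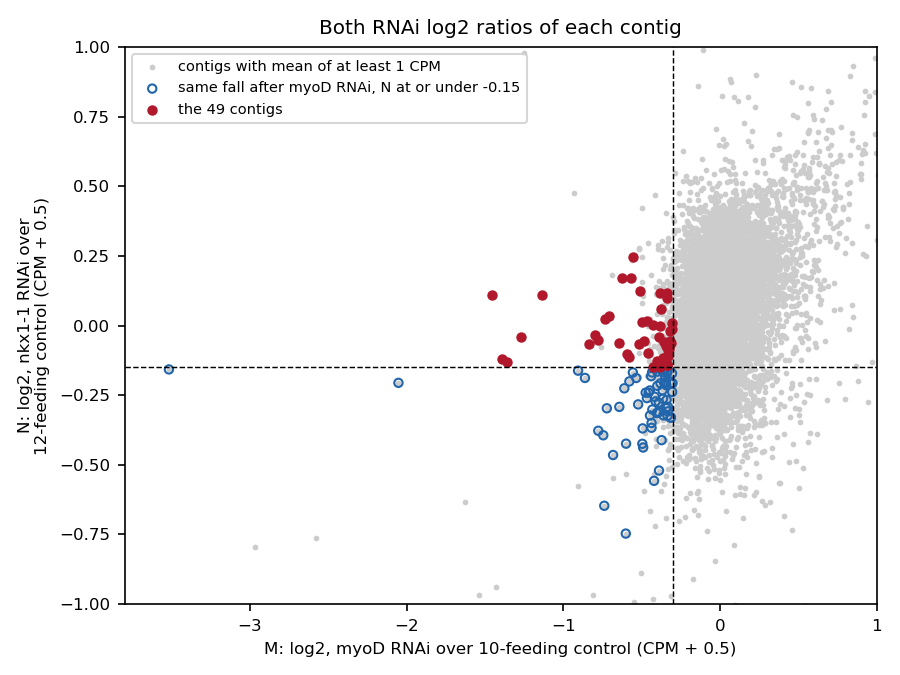
M (x axis, log2, myoD RNAi over control) against N (y axis, log2, nkx1-1 RNAi over control) for contigs with a mean of at least 1 CPM; filled red points are the 49 contigs, open blue points the 64 with the same fall after myoD RNAi and N at or under -0.15, and dashed lines the limits. Red and blue points adjoin at the N limit, the nearest with N at -0.149 and -0.155, and 62 contigs outside the axes are not drawn.

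The limit on N separated contigs with nearly the same values. Just inside it was dd_Smed_v4_8340_0_1 with N at -0.149 and M at -0.43, and just outside it dd_Smed_v4_8461_0_1 with N at -0.155 and M at -0.34. Just inside the limit on M was dd_Smed_v4_8980_0_1 at -0.304, and just outside it dd_Smed_v4_3230_0_1 at -0.299. The least abundant of the 49 was dd_Smed_v4_30210_0_1 with 1.30 CPM, and the nearest contig under the level limit was dd_Smed_v4_30766_0_1 with 0.989 CPM and M at -1.10.

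The 2 contigs with the deepest falls after myoD RNAi, among those without overlap, were left out by the N limit alone. In dd_Smed_v4_12634_0_1, with M at -3.52 and N at -0.158, the lowest, median and highest CPM were 0.202, 0.428 and 1.02 in myoD RNAi animals, against 9.88, 11.02 and 11.8 in controls. Its nkx1-1 RNAi animals had 7.35 to 9.85 CPM, against 10.3, 8.50, 10.8, 11.3 and 9.45 CPM in 12-feeding controls, so the groups overlapped. In dd_Smed_v4_18181_0_1, with M at -2.05 and N at -0.21, they were 0.319, 0.796 and 1.56 CPM after myoD RNAi, against 4.56, 4.82 and 5.52 CPM in controls. Its nkx1-1 RNAi animals had 2.47 to 3.69 CPM, against 3.46, 3.27, 4.30, 2.97 and 3.53 CPM in 12-feeding controls. Both were chosen for naming after their values were seen.

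The position of contigs near the N limit turned on scaling and on which animals were included. Without 12-feeding control replicate 3, N was at or under -0.15 for 10 of the 49, down to -0.22, and 8 of the 10 had at least 10 CPM. With TMM-scaled library sizes in place of the column totals, N was at or under -0.15 for 15 of the 49, 11 of them with at least 10 CPM. Of the 6 contigs at 100 CPM or more, 4 had N at or under the limit in each case, dd_Smed_v4_436_0_1, dd_Smed_v4_660_0_1 and dd_Smed_v4_803_0_1 in both. Apart from replicate 1 the TMM factors were 0.986 to 1.08 for nkx1-1 RNAi libraries, against 0.934 to 0.999 for 12-feeding controls. Other animals mattered too. N was at or under the limit for 9 of the 49 without nkx1-1 RNAi replicate 3 and for 8 without 12-feeding control replicate 5. It was so for 7 without nkx1-1 RNAi replicate 6, 0 without nkx1-1 RNAi replicate 1 and 2 without both libraries that stood apart.

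The 49 contigs were lower in each myoD RNAi animal, as the rule required, so the values by animal are a description. Relative to the mean of the 10-feeding controls, the median over the 49 contigs was -0.47 to -0.39 (log2) in the 6 myoD RNAi animals, against -0.10 to 0.15 in the 6 controls, where replicate 2 was the highest. The 49 contigs held 0.214% to 0.232% of all counts in myoD RNAi animals, against 0.262% to 0.323% in controls. In the 12-feeding schedule the same median was -0.44 to -0.01 in nkx1-1 RNAi animals, against -0.29 to -0.16 in controls. The nkx1-1 RNAi animals therefore reached both above and below their controls, with replicate 3 the highest and replicate 1 the lowest. The 64 contigs left out by N had medians of -0.71 to -0.52 in nkx1-1 RNAi animals, against -0.44 to -0.17 in 12-feeding controls.

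**Figure D4:**
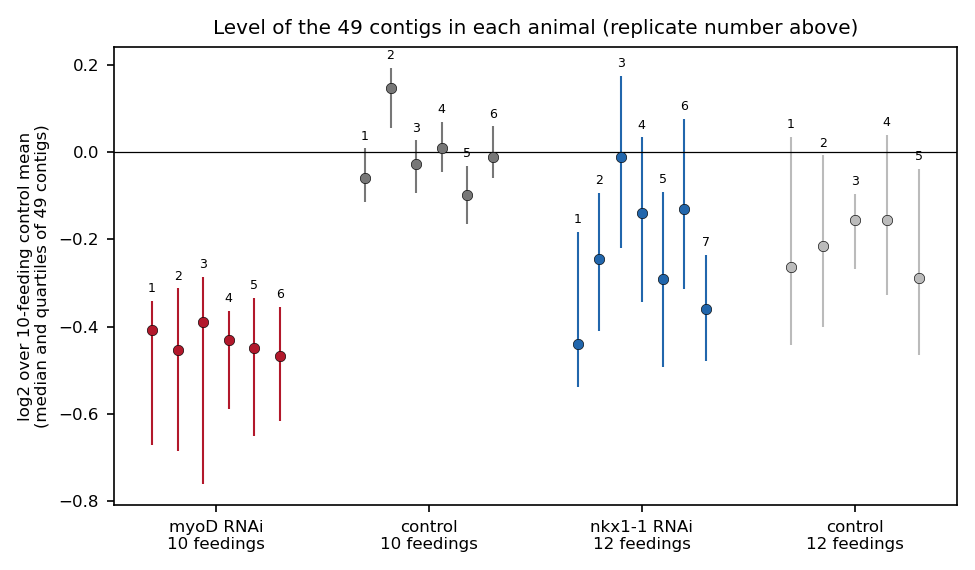
Median (point) and quartiles (bar) over the 49 contigs of log2 of CPM + 0.5 relative to the mean of the 10-feeding controls, for each animal, with its replicate number. The 6 myoD RNAi animals lie at -0.47 to -0.39, under the 10-feeding controls as the rule required. The nkx1-1 RNAi animals spread from -0.44 to -0.01 around controls at -0.29 to -0.16.

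The spread between animals of a group is given as a description, since the rule required 10-feeding groups without overlap and so used their spread. The median coefficient of variation between animals was 9.07% after myoD RNAi and 9.35% in 10-feeding controls, against 8.46% and 8.59% over the 15382 contigs. It was 13.9% after nkx1-1 RNAi and 13.8% in 12-feeding controls, against 11.9% and 11.2% over the 15382 contigs. The 49 had a lower median level (8.31 against 16.1 CPM), where counting noise is larger. The SD between animals was under that of counting for 20 of the 49 after myoD RNAi and for 14 in 10-feeding controls. Whether the spread differs from that of contigs of like level was not tested. Deviations of log2 CPM from the group means had a mean pairwise Pearson correlation of 0.227 over the 1176 pairs of the 49 contigs. Over all pairs of the 15382, across the same 24 animals, it was 0.0972. All contigs of a library share its depth and composition, which differed between libraries, and these CPM were not TMM-scaled.

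The strongest such covariation lay among 12 contigs with means of 19.9 to 570.1 CPM, which formed the 20 pairs with a correlation over 0.8 and include dd_Smed_v4_436_0_1, dd_Smed_v4_660_0_1, dd_Smed_v4_803_0_1, dd_Smed_v4_3090_0_1 and dd_Smed_v4_3684_0_1. They were picked out for these correlations and get no test. In 11 of the 12, nkx1-1 RNAi replicates 1 and 7 were the lowest animals of their group, and in 9 of the 12, 12-feeding control replicate 3 was the lowest of its group. Their median relative to the 10-feeding control mean was -0.37 in nkx1-1 RNAi replicate 1 and -0.33 in replicate 7, while the other nkx1-1 RNAi animals had -0.12 to 0.01. It was -0.21 in 12-feeding control replicate 3 and 0.01 to 0.05 in the other 12-feeding controls. The myoD RNAi animals had -0.48 to -0.27, so nkx1-1 RNAi replicates 1 and 7 fell within their range.

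Between the control animals of both schedules the contigs went in different directions. With edgeR over 16262 contigs, 20 of the 49 were called lower in 12-feeding than in 10-feeding controls, where 16.8% of all contigs tested were, and 3 were called higher, where 18.2% were. The 10-feeding controls enter this comparison and also the rule, which required them to lie above the myoD RNAi animals, so the count is not read as a result about the contigs. For 8 of the 49 every 12-feeding control was under every 10-feeding control, where this held for 9.25% of the 15382 contigs. The median log2 fold change was -0.21, against -0.01 over all tested. By level, 10 of 25 contigs under 10 CPM were lower and 0 higher, 9 of 18 from 10 to 100 CPM were lower and 2 higher, and of the 6 at 100 CPM or more 1 was lower and 1 higher.

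The largest called difference downward was in dd_Smed_v4_27363_0_1, at 0.951 to 1.65 CPM in 12-feeding controls, against 1.77 to 2.69 CPM in 10-feeding controls, with edgeR giving -0.71 ± 0.17 on the log2 scale (SE, adjusted p = 0.00518). Its myoD RNAi animals had 1.09 to 1.63 CPM and its nkx1-1 RNAi animals 1.13 to 2.05 CPM, and of all these only nkx1-1 RNAi replicate 2 reached the 10-feeding control range. In dd_Smed_v4_21691_0_1 the 12-feeding controls had 2.02 to 2.84 CPM, against 3.20 to 4.11 CPM in 10-feeding controls (log2 fold change -0.55 ± 0.12 SE; edgeR adjusted p = 0.00307). Its myoD RNAi animals, at 1.61 to 2.42 CPM, overlapped the 12-feeding controls. In both contigs all 5 controls of the 12-feeding schedule were under all 6 of the 10-feeding one.

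The contigs called higher in 12-feeding controls were dd_Smed_v4_3090_0_1, dd_Smed_v4_3684_0_1 and dd_Smed_v4_660_0_1, all in the covarying set. In dd_Smed_v4_3090_0_1 the 12-feeding controls had 78.7, 74.7, 52.8, 76.0 and 79.3 CPM, against 54.6 to 64.9 CPM in 10-feeding controls (log2 fold change 0.33 ± 0.09 SE; edgeR adjusted p = 0.0110). In dd_Smed_v4_3684_0_1 they had 41.6, 40.7, 28.8, 41.1 and 36.7 CPM, against 27.9 to 35.0 CPM (log2 fold change 0.33 ± 0.08 SE; edgeR adjusted p = 0.00674). In both contigs replicate 3 lay among the 10-feeding controls or under them, and the other 4 were above them all. Without that animal 6 of the 49 were called higher and 23 lower. Over all contigs the calls rose as well, from 2965 higher and 2736 lower of 16262 to 3511 higher and 3452 lower of 16394.

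**Figure D5:**
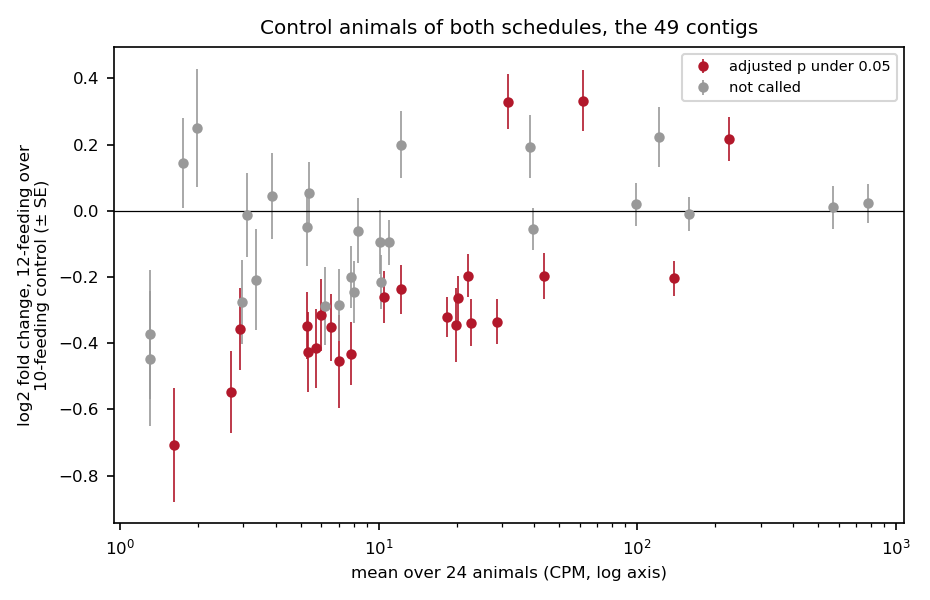
edgeR log2 fold change (± SE) between 12-feeding and 10-feeding control animals for each of the 49 contigs (y axis) against its mean over 24 animals (x axis, CPM, log scale); red points have an adjusted p under 0.05. Of the called contigs 20 lie below 0 and 3 above, at 31.7, 61.6 and 226.3 CPM.

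The assembly gives little on what the 49 contigs share. Their IDs belong to 49 components of the 26402 in the table, and 1 of them shares its component with another contig. This is dd_Smed_v4_12939_2_1, with 4.03 to 6.23 CPM in myoD RNAi animals, against 9.14 to 10.3 CPM in controls (M = -0.80). The other contig of that component, dd_Smed_v4_12939_0_1, had 0 to 2 counts per library, too few for a comparison.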

How the data were processed

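The deposited read counts are whole numbers per contig of a transcript assembly, which the authors gave without normalization. The tools named in the submitters' processing notes are Bowtie 1.1.1, cutadapt 1.8, DESeq, SAMtools and CASAVA, with no role or order. The kit was stranded per the labels' protocols, and no source used here gives the strand setting of the counting. Contigs of similar sequence can share reads. Per the file headers, the authors' deposited tables hold normalised means (signal), a fold change (ratio), p-values and adjusted p-values for each RNAi group against its control.

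The contigs were found by the rule with CPM over column totals. Members, lists and tests were chosen with earlier results of these data known. The test was edgeR 4.0.16 under R 4.3.3 on the counts (filterByExpr defaults, TMM, glmQLFit and glmQLFTest, two-sided, Benjamini-Hochberg over all contigs tested, called under 0.05). Fits held either RNAi group and the control of its schedule, the controls of both schedules on 11 libraries, and the difference of effects on all 24. The SE is the log2 fold change divided by the square root of F. Alternatives were DESeq2 1.42.0, other size factors, no filter, a replicate block and each library left out. Contigs were named by rank of M, level, N and the schedule difference, nearness to a limit and shared component, except where stated. Replicate numbers were not taken to pair the animals, since in no comparison did every same-numbered pair correlate above 0.1.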

Additional observations from a re-analysis of the deposited data

Results flagged for a closer look

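In 92 sets of values (the named contigs and the summed or median level of the 49 contigs, each within a group), 6 had a highest or lowest animal set apart by a gap that was a large part of the range, where chance gives about 1 in 20 sets, or 4.6. In 3 of the 6 the animal was 12-feeding control replicate 3. It had 52.8 CPM of dd_Smed_v4_3090_0_1 where the other controls had 74.7 to 79.3 CPM, 538.6 CPM of dd_Smed_v4_436_0_1 where they had 627.7 to 649.6 CPM, and 38.9 CPM of dd_Smed_v4_8461_0_1, just outside the N limit, where they had 25.8 to 29.1 CPM. The animal was thus lower than its group in 2 abundant contigs and higher in another. In dd_Smed_v4_14590_0_1 myoD RNAi replicate 5 had 5.42 CPM and the other myoD RNAi animals 3.96 to 4.41 CPM, still under all controls. In dd_Smed_v4_8340_0_1 10-feeding control replicate 2 had 31.0 CPM and the other controls 22.2 to 25.5 CPM. In dd_Smed_v4_8980_0_1 nkx1-1 RNAi replicate 2, the library with the fewest counts, had 3.59 CPM and the others 5.66 to 6.69 CPM.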

How the results depend on the processing

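The number of contigs that met the rule was 16 with an N limit of 0 and 90 with one of -0.3, and 41 to 74 when single libraries were left out, 74 without 10-feeding control replicate 5. With TMM-scaled library sizes 38 met it, 32 of them among the 49. Leaving out both libraries that stood apart gave 67, 47 of them among the 49. Contigs called after nkx1-1 RNAi were 1 with DESeq2 in place of 0, where DESeq2 called 1032 of all 16978 contigs tested. Of the 49, 6 were called higher in 12-feeding controls without 12-feeding control replicate 3, and 2 to 6 over single libraries left out. The fit between controls holds no nkx1-1 RNAi library. Leaving out both that stood apart therefore repeats the fit without replicate 3, and the numbers of alternatives below include it again. Of the 127 alternative counts the other 121 stayed within 1.5 times the reported count. Among these, the difference of effects was called for 16 of the 49 without 12-feeding control replicate 3. There 36 of all 17305 contigs tested were called in that direction. Without both libraries that stood apart it was called for 15, where 33 of 17306 were. Of 368 alternative values of contigs called between controls, 42 missed the threshold and 0 changed sign, and 14 of the 23 contigs were called under all 16 alternatives. With a replicate block the counts were 44 after myoD RNAi, 0 after nkx1-1 RNAi, 18 lower and 3 higher between controls, and 12 for the difference of effects. Over all contigs the block gave 345 lower of 16352 after myoD RNAi and 12 of 16598 after nkx1-1 RNAi. Between controls it gave 2253 lower and 2478 higher of 16262, and for the difference 26 of 17159 in that direction. Without the block 643 were called after nkx1-1 RNAi, so nothing is read from the 0 with it. Deviations of same-numbered animals from their group means correlated at -0.44 to 0.30 in the 10-feeding schedule (1 of 6 pairs over 0.1), -0.26 to -0.01 in the 12-feeding schedule (0 of 5) and -0.15 to 0.42 between the controls of both schedules (3 of 5). Contigs under 2 CPM rest on few counts, so small differences between animals were not detectable for them.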
